A study of Mus musculus with 3 samples.

Results

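The 10 genes described here encode the proteins that detect foreign or misplaced RNA and DNA inside the cell, with their nearest adaptors and brakes: Ddx58, Ifih1, Dhx58, Mavs, Eif2ak2, Adar, Zbp1, Mb21d1, Tmem173 and Trex1. They were chosen by name, from their known roles, with earlier results of these data known. All 10 were found among the 55536 annotated genes of the deposited tables, of which 22015 were protein-coding genes outside the mitochondrial chromosome. Mb21d1, which encodes cGAS, is listed there under its newer symbol Cgas and was matched through a RefSeq synonym. The study held 1 group of 3 biological replicates and no untreated sample, so that levels can be compared between genes and between libraries but not between conditions.

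The libraries came from primary bone-marrow-derived macrophages of C57BL/6J mice. Every culture had received 100 ng/ml lipid A, the part of lipopolysaccharide that acts on Toll-like receptor 4, for 12 h. It had then been washed and rested for 12 h, and was then given lipid A again at 100 ng/ml, over 90 min. RNA was taken from the chromatin fraction, which is rich in transcripts still being made or spliced, and was depleted of ribosomal RNA. The labels list 1 donor identifier for all 3 libraries and do not say whether separate mice or cultures were used, so the spread between libraries may be technical; age and sex are not given. Library preparation began from 1 µg of RNA in replicate 1, from 250 ng in replicate 2 and from 500 ng in replicate 3. The libraries held 12502177, 21683473 and 16844974 estimated counts on genes. Replicates 2 and 3 were most alike, with a Spearman correlation of 0.965 across 11883 genes, against 0.923 and 0.939 for replicate 1 with each of them; genes are not independent replicates. All 10 macrophage markers examined were at or above 1 TPM (a length-corrected level scaled to the same total in each library) in each library, and their summed level was 827 to 1033 TPM. Of 32 markers of other lineages, 3 reached that level in each library: Tcf4 and Ccr9, listed for plasmacytoid dendritic cells, and Cd4, listed for T and NK cells. Tcf4 was the highest at 95.2 TPM. The 6 plasmacytoid dendritic cell markers summed to 76.0 to 134 TPM, most of it Tcf4, and 6 neutrophil markers to 0 to 0.380 TPM. Cd3d, of the T and NK cell list, was at 0 here but at 16.3 TPM in a second table made directly from reads.

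Cytosolic sensing runs along separate arms. RIG-I (Ddx58) and MDA5 (Ifih1) are helicases that bind viral double-stranded RNA and signal through the mitochondrial adaptor MAVS, while LGP2 (Dhx58) tunes them; PKR (Eif2ak2) answers double-stranded RNA by stopping translation, and ADAR1 (Adar) edits such RNA so that it is less readily sensed. In the DNA arm, cGAS makes a cyclic dinucleotide that activates STING (Tmem173), and the exonuclease TREX1 removes the DNA. ZBP1 binds the left-handed Z form of nucleic acids and can start necroptosis. Several of these genes are themselves induced by interferon, through a promoter element called the ISRE that the factor ISGF3 binds, or through another promoter element called GAS.

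RefSeq promoter windows of 250 bases before to 50 after a start site (GRCm38.p6) were at hand for 7 of the 10 genes, in 10 windows; Dhx58, Tmem173 and Zbp1 had none. A search on both strands looked for the ISRE core, GAAA followed by any 2 bases and GAAA again. It found a match in 3 of the 10 windows, those of Ifih1, Ddx58 and Eif2ak2, while 3.44% of all 32851 windows held one. These windows are shown because the ISRE is the element best known for interferon induction of this gene family. Capitals mark the motif, and each run is written 5′ to 3′ on the strand of its gene, in the Ddx58 window with the motif on the other strand.
Ifih1, chr2:62646206-62646233, minus strand: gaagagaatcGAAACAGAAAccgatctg
Ddx58, chr4:40239804-40239833, minus strand: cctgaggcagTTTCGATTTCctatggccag
Eif2ak2, chr17:78882535-78882564, minus strand: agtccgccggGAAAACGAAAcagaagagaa
Counting the annotated start site as base 1, the motif began at base 33, 3 and 19, respectively. A match to the GAS letters TTCNNNGAA, held by 8.30% of all windows, was found at base 23 from the downstream start of Adar as RefSeq places it, counted in the same way, and 178 bases before the start of Eif2ak2.
Adar, chr3:89730730-89730758, plus strand: gggaagccttTTCAAGGAAacgaaagtga
Eif2ak2, chr17:78882732-78882760, minus strand: ctgcagagctTTCCCAGAAtggaagccag
The promoter window of Mavs, the gene with the lowest level, had a GC content of 64.0% against a median of 52.7% over all windows, and held 3 GC boxes (GGGCGG, on either strand), a motif found in 35.7% of windows. This was not particular to Mavs: the window of the highly expressed Ddx58 also held 3 GC boxes, and 1 of the 3 Adar windows had a GC content of 70.0%. A match describes the letters in these windows and does not show that a factor bound there.

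Ifih1 had the highest mean level of the 10 genes and also the widest spread. Its levels were 488, 137 and 214 TPM in replicates 1 to 3, a mean of 279 ± 184 (SD, n = 3), from 16958, 8664 and 10246 estimated counts. Replicate 1 stood above the others, and without it the mean was 175 TPM. The gene lies at chr2:62595798-62646255 on the minus strand (mm10). Ddx58 (chr4:40203773-40239828, minus strand) was at 271, 161 and 150.3 TPM, a mean of 194 ± 66.7 (SD, n = 3), again highest in replicate 1. Dhx58, the gene of the regulatory helicase LGP2 (chr11:100694884-100704271, minus strand), was at 117, 102 and 99.0 TPM, a mean of 106 ± 9.48 (SD, n = 3), so that the libraries lay close together.

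Mavs, the adaptor on which RIG-I and MDA5 converge, was the lowest of the 10. It was at 2.33, 3.24 and 2.97 TPM, a mean of 2.85 ± 0.467 (SD, n = 3), from 53, 168 and 121 estimated counts (chr2:131234063-131248025, plus strand). Every library thus placed the adaptor well below each of the 3 helicase genes. The mean level of Mavs was above that of 36.7% of protein-coding genes averaging 0.1 TPM or more, whereas Ifih1, Ddx58 and Dhx58 were above 98.9%, 98.0% and 95.4% of them.

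The genes of the double-stranded RNA kinase and of the RNA editor lay near the helicases. Eif2ak2 (chr17:78852564-78882573, minus strand) was at 252, 144 and 157 TPM, a mean of 184 ± 58.8 (SD, n = 3). Adar (chr3:89715022-89753446, plus strand) was at 201, 161 and 146 TPM, a mean of 169 ± 28.3 (SD, n = 3). Both were highest in replicate 1. Zbp1, the Z-form sensor (chr2:173206612-173218923, minus strand), was at 159, 110.4 and 97.0 TPM, a mean of 122 ± 32.5 (SD, n = 3).

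The DNA arm was lower. Trex1, which degrades cytosolic DNA (chr9:109057933-109059734, minus strand), was at 32.7, 28.9 and 33.6 TPM, a mean of 31.7 ± 2.49 (SD, n = 3), the narrowest spread of the 10 on the log2 scale, and at 20.3 ± 2.52 TPM in the table made directly from reads. The sensor gene Mb21d1 (chr9:78430526-78443237, minus strand) was at 7.91, 6.34 and 5.89 TPM, a mean of 6.71 ± 1.06 (SD, n = 3). Tmem173, the gene of the STING adaptor (chr18:35733679-35740554, minus strand), was at 3.41, 4.75 and 3.43 TPM, a mean of 3.86 ± 0.768 (SD, n = 3), and rested on 29, 64 and 43 estimated counts. The adaptors of both arms, Mavs and Tmem173, were therefore the lowest members. Mavs was lowest in replicate 1, and Tmem173 was level in replicates 1 and 3, but at 7.40, 5.36 and 4.65 TPM in the table made directly from reads, where replicate 1 was the highest. The median of the 6 RNA-arm genes (the helicases, Mavs, Eif2ak2 and Adar) was 226, 140.2 and 148 TPM, and that of the 3 DNA-arm genes was 7.91, 6.34 and 5.89 TPM. On the log2(TPM + 1) scale the medians differed by 4.66, 4.27 and 4.44, a mean difference of 4.46 ± 0.20 (SD, n = 3). With means over the genes in place of medians it was 3.10. Protein-coding transcripts held between 25.3% (Ddx58) and 88.5% (Mavs) of the TPM in RNA-arm genes. In DNA-arm genes they held between 28.4% (Tmem173) and 100.0% (Trex1).

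**Figure D1:**
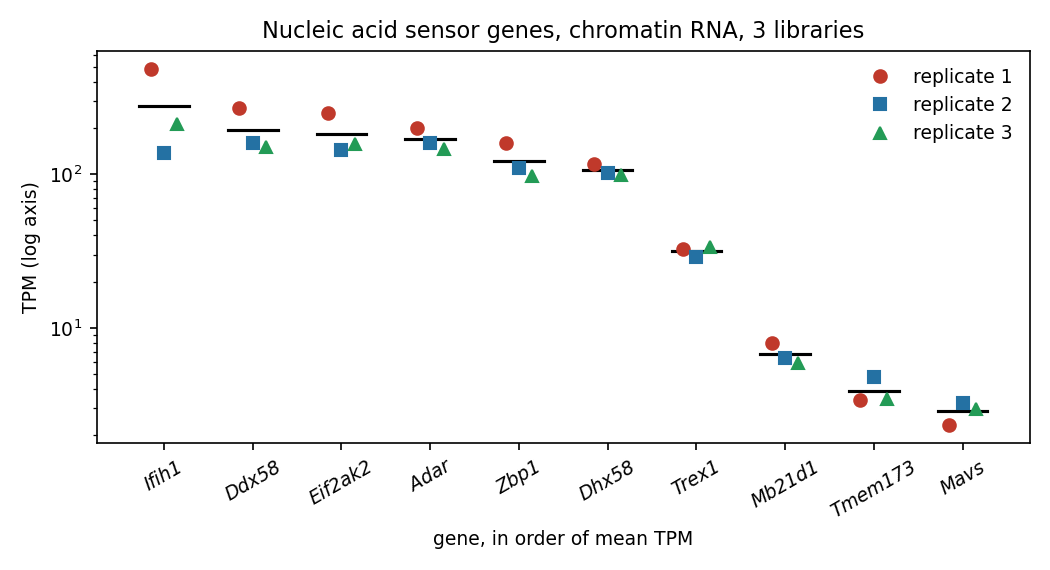
Level of each sensor gene in TPM (vertical log axis) in the 3 libraries (points) with their mean, the genes ordered by mean. Ifih1 spans 137 to 488 TPM, while Trex1 spans 28.9 to 33.6 TPM and Mavs 2.33 to 3.24 TPM.

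Not every step in this order was larger than the spread between libraries. Between neighbours, the difference in log2(TPM + 1) exceeded its SD over libraries in 5 of 9 steps, and in those 5 it had the same sign in 3 of 3 libraries: Adar over Zbp1 by 0.49 ± 0.13, Dhx58 over Trex1 by 1.71 ± 0.15, Trex1 over Mb21d1 by 2.09 ± 0.21, Mb21d1 over Tmem173 by 0.67 ± 0.33, and Tmem173 over Mavs by 0.33 ± 0.15 (SD, n = 3). Flipping the signs of the library differences (exact permutation, two-sided) gave p = 0.25 for each, the smallest that 3 libraries allow, so that this design cannot reach the usual threshold. The steps from Ifih1 to Ddx58 (0.37 ± 0.55), Ddx58 to Eif2ak2 (0.07 ± 0.12), Eif2ak2 to Adar (0.09 ± 0.25) and Zbp1 to Dhx58 (0.17 ± 0.24) were smaller than their SD and positive in 2 of 3 libraries. The order of Ifih1, Ddx58, Eif2ak2 and Adar among themselves thus varied between libraries in the gene table. In the table made directly from reads Ddx58 was above Eif2ak2 by 0.24 ± 0.11 and Eif2ak2 above Adar by 0.37 ± 0.14, each in 3 of 3 libraries. There the step from Mb21d1 to Tmem173 was 0.05 ± 0.07, within its SD, so the order of these genes rests on the table used. Over all 45 pairs of the 10 genes, 38 kept 1 sign in the 3 libraries. These steps used gene TPM, which counts every annotated form. On protein-coding transcripts alone Dhx58 (40.9, 50.2 and 48.7 TPM) stayed above Trex1 (32.7, 28.9 and 33.6 TPM), but less far. Ddx58 (51.4, 44.1 and 44.5 TPM) was then near Dhx58.

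All 10 genes had at least 1 TPM in each library, a level reached by 41.1% of protein-coding genes. At least 10 TPM in each library was reached by 7 of the 10 genes, against 19.1% of protein-coding genes. At least 100 TPM was reached by 4, Ifih1, Ddx58, Eif2ak2 and Adar, against 2.07% of protein-coding genes. Just outside the last limit were Dhx58 at 99.0 and Zbp1 at 97.0 TPM in replicate 3, and just inside it Ifih1 at 137 TPM in replicate 2. The members' shares were above the background at each limit, for genes that were picked with earlier results of these data known.

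The libraries did not differ alike at every member. The ratio of replicate 1 to the mean of replicates 2 and 3 was 2.78 for Ifih1, 1.74 for Ddx58, 1.67 for Eif2ak2 and 1.53 for Zbp1. It was 1.31 for Adar, 1.29 for Mb21d1, 1.16 for Dhx58 and 1.05 for Trex1, and it was below 1 for Tmem173 (0.834) and Mavs (0.750). For Tmem173 it turned to 1.48 in the table made directly from reads, while Mavs stayed below 1 at 0.623. The ratio was above 1 for 8 of the 10 genes, against 57.9% of protein-coding genes averaging 10 TPM or more. In the other table it was above 1 for 9, against 65.8% of such genes. With TPM rescaled to protein-coding genes it was above 1 for 6, against 35.8%. On counts per kilobase scaled between libraries (TMM) it was above 1 for 7, against 49.8%. Mb21d1, Tmem173 and Mavs averaged less than 10 TPM, so these counts include members that the background would leave out. Tmem173 and Mavs, the members below 1 on TPM as deposited, are among them. On TPM as deposited, the median ratio over the 4776 such genes was 1.07, with 10th and 90th percentiles of 0.680 and 1.64. Ifih1, Ddx58 and Eif2ak2 lay beyond the upper of these. The SD of log2(TPM + 1) over libraries was 0.93 for Ifih1, larger than in 99.1% of those genes, and 0.46 for Ddx58, larger than in 85.2%; the gene median was 0.25. The members' median was 0.37 over the 7 that averaged 10 TPM or more like those genes, of which 4 lay above the gene median, and 0.23 over all 10. Replicate 1 also had the most starting RNA, the lowest total count and the largest share of TPM on protein-coding genes (34.1%, against 27.4% and 29.4%). The part of these library features in the ratios was not tested; with TPM rescaled to protein-coding genes alone, the ratio was 2.33 for Ifih1, 1.44 for Ddx58 and 1.08 for Adar.

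Chromatin RNA holds many transcripts that keep an intron, and the transcript table divides each gene into transcripts annotated as protein-coding and others (retained-intron, processed and nonsense-mediated decay forms). For Ifih1 the protein-coding transcripts summed to 223, 68.9 and 112 TPM and the others to 265, 68.0 and 102 TPM, so that in this table each class held close to the same level in every library. In the table made directly from reads the classes were apart, with 203, 58.9 and 95.3 TPM on protein-coding and 585, 128 and 195 TPM on other transcripts. For Ddx58 the protein-coding sum was 51.4, 44.1 and 44.5 TPM, all from the transcript Ddx58-201 of 926 codons, and the others summed to 219.5, 117 and 106 TPM. The full-length RIG-I transcript therefore varied less between libraries than the shorter forms, which held most of the higher level of replicate 1. In Dhx58 the protein-coding transcript Dhx58-201, of 678 codons, was at 40.9, 50.2 and 48.7 TPM, lowest in replicate 1, and the other forms summed to 75.9, 52.1 and 50.3 TPM, highest there. In the other table Dhx58-201 was level over the libraries, at 44.7, 45.8 and 43.7 TPM, and the other forms were again highest in replicate 1, at 131, 90.4 and 97.4 TPM.

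Eif2ak2 had 78.5, 51.4 and 53.5 TPM on its protein-coding transcript of 515 codons and 173, 92.3 and 104 TPM on other forms. Zbp1 was mostly a single retained-intron transcript, Zbp1-203, of 3325 bases, at 114, 80.0 and 65.6 TPM; this form held 70.6% ± 2.64 (SD, n = 3) of the gene's TPM. The protein-coding share was 25.3% ± 5.62 for Ddx58, 33.6% ± 2.29 for Eif2ak2, 44.4% ± 8.15 for Dhx58, 44.4% ± 5.86 for Adar and 49.4% ± 3.37 for Ifih1 (SD, n = 3). Trex1 had protein-coding transcripts only, and Mavs and Mb21d1 were at 88.5% ± 16.2 and 80.8% ± 4.77. Of estimated counts rather than TPM, the protein-coding share was 89.0% for Adar, 84.2% for Eif2ak2, 64.7% for Ifih1, 51.7% for Ddx58 and 11.8% for Zbp1, since TPM gives short forms more weight per count. For Tmem173 the share was 28.4% ± 15.6 in this table and 77.7% in the transcript table made directly from reads, so the make-up of this gene cannot be given at 29 to 64 counts. The tables also differed for Zbp1 (49.0% in the other table) and Ifih1, where the 439-base form Ifih1-204 took 44.6% of the gene in the other table and 3.76% in this one.

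**Figure D2:**
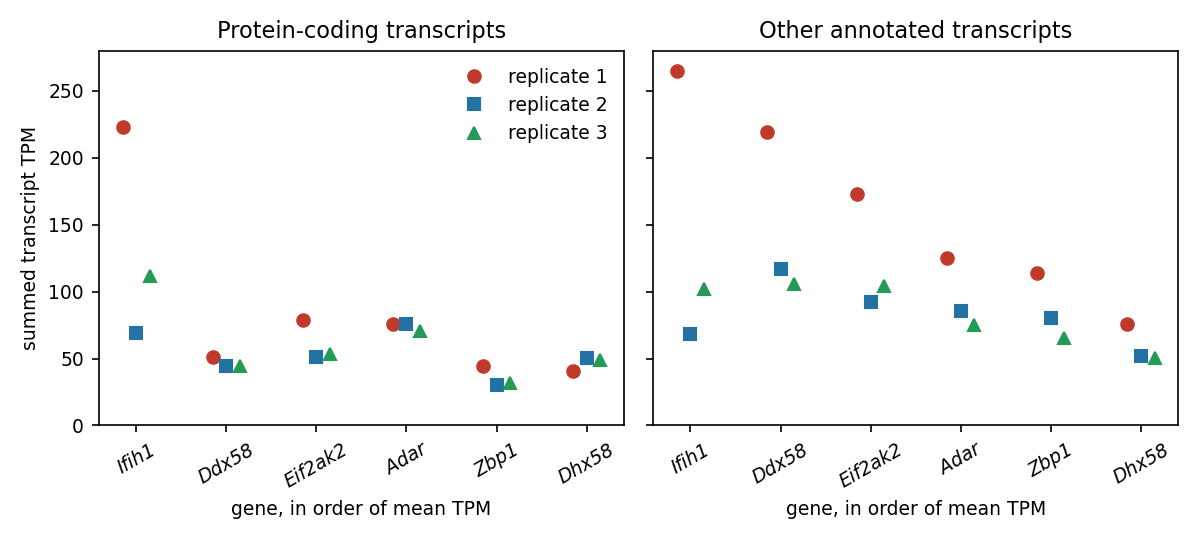
Summed TPM of protein-coding and of other transcripts (vertical axis) of 6 sensor genes in the 3 libraries. Protein-coding Ddx58 lies between 44.1 and 51.4 TPM, while its other transcripts lie between 106 and 219.5 TPM.

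In each of the 6 genes that averaged 10 TPM or more and had both classes, the ratio of replicate 1 to the mean of replicates 2 and 3 was higher for the other transcripts than for the protein-coding ones. It was 1.97 against 1.16 for Ddx58, 1.56 against 1.03 for Adar, 1.48 against 0.827 for Dhx58 and 3.11 against 2.47 for Ifih1. The same direction was found in 73.9% of 4111 genes at that level, so it was common and is not read as a feature of the sensors. This comparison was chosen after the values were seen, and in the table made directly from reads it held for 5 of the 6, the exception being Zbp1.

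Adar is transcribed from separate starts, which give the long interferon-inducible form of ADAR1 (p150) and the shorter form made at all times (p110). The annotation holds 1 protein-coding Adar transcript from the upstream start, Adar-202 of 930 codons, and 4 from a start 15726 bases downstream, of which Adar-201 of 1152 and Adar-203 of 1178 codons had signal and Adar-204 and Adar-205 were listed at 0. The upstream transcript was at 2.51, 4.15 and 2.93 TPM, a mean of 3.20 ± 0.852 (SD, n = 3). The downstream transcripts summed to 73.2, 71.6 and 68.0 TPM, a mean of 70.9 ± 2.67 (SD, n = 3). The downstream group held 95.7% ± 1.09 of the protein-coding Adar level, and 95.6% ± 1.51 in the table made directly from reads, and the values of the classes did not overlap. The codon counts place the longer reading frames at the downstream start. Induction from either start was not tested. Adar-208, a retained-intron form of 708 bases from within the gene, 22564 bases after its start, was at 83.8, 55.7 and 58.7 TPM; it held 38.8% of the gene's TPM but 8.05% of its estimated counts.

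**Figure D3:**
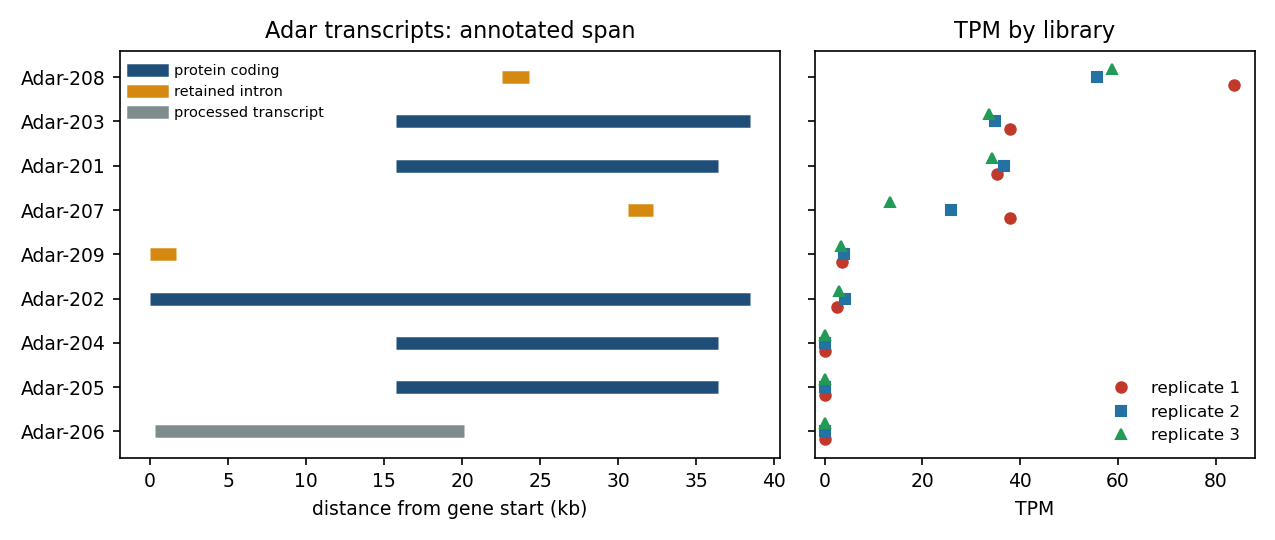
Left, extent of each annotated Adar transcript in kb from the start of the gene, coloured by its annotated type; right, its TPM in the 3 libraries. Adar-201 (34.3 to 36.7 TPM) and Adar-203 (33.7 to 37.9 TPM) start downstream, and Adar-202 (2.51 to 4.15 TPM) starts upstream.

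Overlapping genes limit some of these levels, because the sources used here do not say whether the counting used strand. Chrnb2, a nicotinic receptor gene on the strand opposite Adar, shares 1365 exon bases with it and was at 14.9, 8.96 and 9.45 TPM, high in the same replicate as Adar. Atrip, a DNA damage checkpoint gene on the same strand as Trex1, shares 1147 exon bases with it and was at 10.9 ± 0.0252 TPM (SD, n = 3), so that reads in the shared exons could have gone to either gene. The noncoding Gm26637 opposite Eif2ak2 was at 4.99 ± 1.66 TPM and Dhx58os opposite Dhx58 at 3.13 ± 0.582 TPM. Gm8093, a pseudogene opposite Mb21d1, was at 0.213 TPM. The ribosomal RNA gene n-R5s29 within Eif2ak2 was listed at 0 in the gene table and at 83.7 TPM in the table made directly from reads, over 119 bases. How far reads were shared between these pairs was not tested.

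The signalling partners of the RNA helicases were mostly present. Of 43 genes of RIG-I-like receptor signalling, 41 were at or above 1 TPM, 30 at or above 10 TPM and 9 at or above 100 TPM in each library. Over all protein-coding genes 41.1%, 19.1% and 2.07% reached these limits. The list median was 24.9 ± 0.674 TPM (SD, n = 3), against 5.67 ± 0.329 over protein-coding genes averaging 0.1 TPM or more, and 138, 106 and 98.0 TPM in replicates 1 to 3 for the 10 sensor genes. Ikbke, a kinase that activates the interferon regulatory factors, was the highest at 1681 ± 91.2 TPM. The kinase scaffold gene Tank was at 305 ± 147 TPM and Irf7, the interferon regulatory factor that amplifies the response, at 294 ± 44.2 TPM. The ubiquitin ligase gene Rnf125, which limits RIG-I, was the lowest at 0.0267 TPM. The adaptor gene Mavs, which was not counted in this list, was thus below its median.

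Of 31 genes of the cGAS-STING pathway, 23 were at or above 1 TPM, 13 at or above 10 TPM and 3 at or above 100 TPM, with a list median of 10.4 ± 2.10 TPM (SD, n = 3). The shares over all protein-coding genes, for this list and the next, were 41.1%, 19.1% and 2.07%. After Ikbke, which both lists hold, the highest were Ifi204, a DNA-binding protein of the interferon-inducible p200 family, at 411 ± 173 TPM and the kinase gene Tbk1 at 220.1 ± 46.7 TPM, while Ttll6 was listed at 0. Among 24 nuclease and inherited interferonopathy genes, 21 were at or above 1 TPM, 14 at or above 10 and 3 at or above 100, and the median was 27.4 ± 4.94 TPM. Stat2, a subunit of ISGF3, was at 499 ± 94.8 TPM, Samhd1, which breaks down the building blocks of DNA, at 485 ± 173 TPM, and the lysosomal ribonuclease gene Rnaset2b at 334 ± 187 TPM; Dnase1l3 was the lowest. Trex1, which was not counted in that list, lay near its median.

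All 22 genes of the PKR and eIF2 list were at or above 1 TPM, 12 at or above 10 and none at or above 100, with a median of 12.3 ± 1.45 TPM (SD, n = 3), so that Eif2ak2 was higher than each of them. Beside this and the lists that follow, the shares over all protein-coding genes were 41.1%, 19.1% and 2.07%. The double-stranded RNA-binding gene Stau1 was at 44.6 ± 3.87 TPM, the stress transcription factor gene Ddit3 at 37.2 ± 9.65 TPM and Eif2b3, a subunit of the exchange factor that PKR restrains, at 2.81 TPM. Of the 12 ZBP1 and necroptosis genes, all were at or above 1 TPM, 7 at or above 10 and 3 at or above 100: Cflar, an inhibitor of caspase 8, at 395 ± 149.7 TPM, the inflammasome sensor gene Nlrp3 at 275 ± 24.0 TPM and the pore-forming Gsdmd at 181 ± 10.9 TPM, with the death adaptor gene Fadd lowest at 1.14 TPM. The relatives of Adar were low, with a list median of 0.0733 TPM. Of the 7, only the tRNA deaminase gene Adat1 at 1.77 TPM was at or above 1 TPM in each library. The share over protein-coding genes was 41.1%, and a list of 7 is short for such a comparison. Adat3 followed at 1.41 TPM and Adat2 at 0.513 TPM, and Adad1 and Adad2 were listed at 0. Without replicate 1, or in the table made directly from reads, 2 of the 7 reached that level. Of 34 other nucleic acid sensors 31 were at or above 1 TPM, 20 at or above 10 and 4 at or above 100, led by Hnrnpa2b1 (771 ± 55.6 TPM), Unc93b1, the chaperone of endosomal Toll-like receptors (209 ± 31.2 TPM), and the RNA-binding Ifit3 (179.9 ± 51.3 TPM). Xrcc5 was the lowest of them at 0.0367 TPM.

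**Figure D4:**
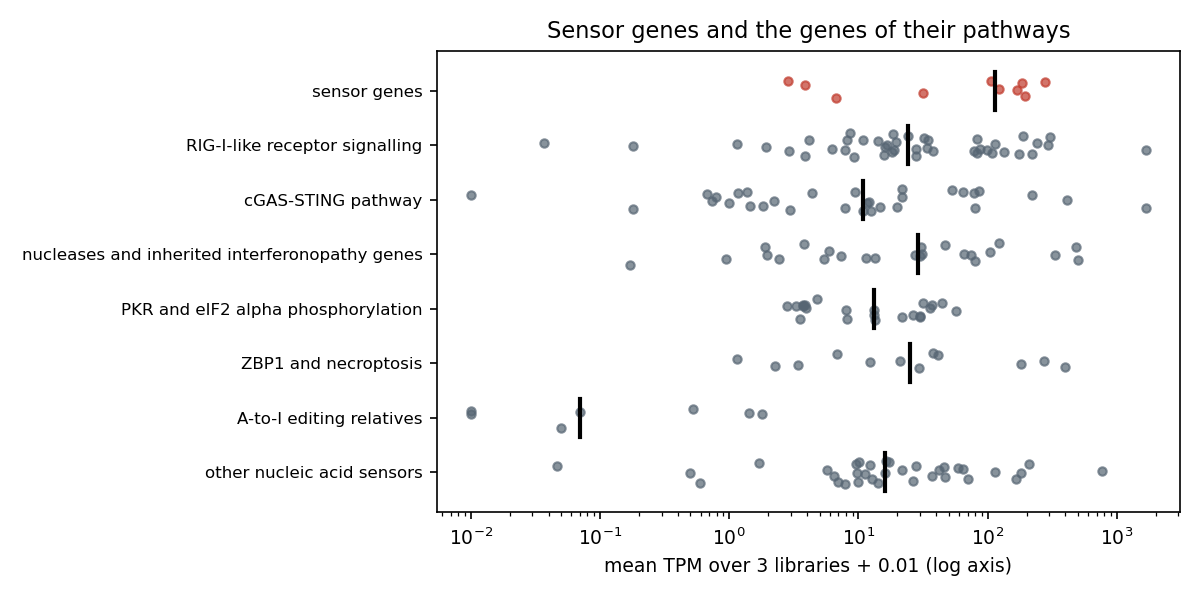
Mean TPM over the 3 libraries (horizontal log axis, with a small constant added so that 0 can be drawn) of the 10 sensor genes and of the genes of each pathway list; points are genes and vertical bars are medians of these means. The A-to-I editing relatives lie below 2 TPM, and Ikbke at 1681 TPM is the highest gene of the first lists.

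The gene whose pattern over the 3 libraries was closest to each member was found as the smallest Euclidean distance of centred log2(TPM + 1) among 4769 protein-coding genes averaging 10 TPM or more. Eif2ak2 was closest to Nfkbiz (0.008), Ddx58 to Gbp2 (0.023) and Zbp1 to Ms4a4a (0.025). Trex1 was closest to Tmem234 (0.002), Dhx58 to Slu7 (0.004) and Adar to Stt3a (0.014). For Mavs the closest was Alkbh3 (0.006), for Tmem173 Zc3h4 (0.006) and for Mb21d1 Sft2d1 (0.006). Many genes lay nearly as close, with 113 within 0.1 of Eif2ak2 and 295 within 0.1 of Trex1. Ifih1 was farthest from any other gene: the closest, Tiparp, lay at 0.122, and no gene lay within 0.1, where the other members had 51 to 295 genes. With only 3 libraries such distances rest largely on the ratio of replicate 1 to the others.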

How the data were processed

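Total RNA libraries of the chromatin fraction of 3 biological replicates in 1 group were used. The authors deposited, per the file headers, gene and transcript tables with expected (estimated) counts and TPM from alignments to the transcriptome, and a second transcript table with estimated counts and TPM made from the reads directly. The build was mm10, per the labels, and the gene IDs match GENCODE M21; for aligner, quantifier and strand setting: not given in the sources used here. Left out were the 26345 rows that name no gene (1.34%, 0.292% and 0.416% of counts in replicates 1 to 3). TPM was taken as deposited, and differences are on the log2(TPM + 1) scale, which understates changes of low genes. A floor of 3 counts corresponds to 0.240, 0.138 and 0.178 CPM; such floors cover counting error only. Expected counts were rounded for scaling factors, which came from edgeR 4.0.16 (TMM) and DESeq2 1.42.0 in R 4.3.3 and were tested on simulated data; other steps used Python 3.11.15 with pandas 2.3.3 and SciPy 1.17.1. No 2 libraries agreed within sampling noise. With 1 group there was no contrast, and neighbouring genes were compared within libraries by flipping signs over libraries (exact permutation, two-sided). The text names the 10 genes, the 3 highest and the lowest gene of each pathway list, overlapping genes and the gene of closest pattern; 1 gene under this rule is not reported here. The members and lists were chosen with earlier results of these data known. The alternatives were another pseudocount, scaling, limit, table or background, and leaving out each replicate. Promoter sequences are RefSeq's (GRCm38.p6).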

Additional observations from a re-analysis of the deposited data

How the results depend on the processing

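The difference between the medians of the RNA-arm and DNA-arm genes (4.46 on the log2 scale) was 4.63 with a pseudocount of 0.1 and 4.35 to 4.55 with each replicate left out in turn; it moved to 3.10 with means over the genes and to 4.78 in the table made directly from reads. The members' median above that of protein-coding genes (4.09 on the log2 scale) was 3.42 against genes averaging 1 TPM or more and 6.39 against all protein-coding genes. The members' median spread less that of other genes was -0.02, and it turned to 0.03 on TMM-scaled log2 CPM, over all 10 members; over the 7 that averaged 10 TPM or more the members' median was above that of other genes on both scales, 0.37 against 0.25 and 0.32 against 0.24. The step from Eif2ak2 to Adar turned to -0.03 without replicate 1 and was 0.21 without replicate 2, and the step from Zbp1 to Dhx58 turned to -0.24 in the other table; the cause was not tested. Without replicate 1 the mean of Ifih1 was 175 TPM, and it was 351 TPM without replicate 2. The count of A-to-I editing relatives detected was 2 at a limit of 0.5 TPM and 0 at 5 TPM. With a limit of 0.5 TPM 10 members were detected, and with 5 TPM 8. The table made directly from reads gave mean levels of 422 TPM for Ifih1 (279 in the gene table), 20.3 for Trex1 (31.7) and 5.80 for Tmem173 (3.86), and a step from Dhx58 to Trex1 of 2.83 in place of 1.71. No paired analysis between groups was possible because the study has 1 group. Depth limits Tmem173 and Mavs most.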
